A study of Homo sapiens with 17 samples.

Results

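The RNA of HepG2 cells given 2 µM 5-azacytidine was set against the RNA of untreated HepG2 cells (0 µM). HepG2 is an established human line from a hepatocellular carcinoma, labelled wild type and hepatocyte here, and every group is this 1 line. Cells of both groups were kept for 4 days with the medium renewed each day, so the drug was the stated difference. The members are all 63187 genes of the deposited count table in 6 of the series' 17 libraries, chosen by dose and assay as labelled, with 3 RNA-seq libraries at 0 µM and 3 at 2 µM. The other 3 RNA libraries, from cells given 10 µM, were not compared here. They took part in the filter for genes with enough reads, in the scaling and in the estimate of the spread. The 8 ATAC-seq libraries, which measure how open the chromatin is, were used for promoters alone. Of the genes, 18999 had enough reads to be tested.

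5-Azacytidine is an analog of the nucleoside cytidine that cells build into RNA and, after reduction, into DNA. In DNA it traps the methyltransferases that copy cytosine methylation to the new strand, so that methylation is lost as cells divide. Methylation at CG dinucleotides of a promoter is known to keep many genes silent, among them germline genes and 1 parental copy of imprinted genes, and the drug is known for reactivating such genes in cultured tumour cells. In liver cancer the genes of secreted plasma proteins, of drug metabolism and of fetal liver are common readouts of the cell state. No methylation was measured in these libraries.

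The 6 libraries held 35553052 to 44880960 counts. Levels below are CPM, the counts of a gene relative to the total of its library, on a library scale set by TMM, a method that takes most genes as unchanged, and library values are always given in the order of replicates 1, 2 and 3. All 16 hepatocyte markers examined reached 1 CPM in a library, and their summed level was 41856 to 71289 CPM at 0 µM against 22233 to 37696 CPM at 2 µM. Leukocyte markers summed to 2395 to 3523 CPM at 0 µM and 1157 to 1752 CPM at 2 µM, nearly all of it LYZ, and the defining markers PTPRC, CD2 and MS4A1 were at 0 counts in all 6 libraries. Endothelial markers summed to 18.9 to 33.8 CPM and 54.4 to 142.7 CPM, with KDR, STAB2, EMCN and CLDN5 at 0. Fibroblast and stellate markers stayed at 29.9 to 56.5 CPM and 29.2 to 52.3 CPM with THY1 at 0. Cholangiocyte markers lay at 1024 to 1292 CPM and 1029 to 1354 CPM with CFTR at 0. A lower level in these bulk libraries can mean fewer cells of a state or less RNA per cell, and these cannot be told apart. The labels speak of biological replicates but name no separate cultures, so p-values measure only the spread between these libraries.

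More genes rose than fell. At an adjusted p under 0.05, 611 genes rose, 3.22% of those tested, and 202 fell, 1.06%. Among the called genes with at least 1 CPM at 0 µM, the median change of 242 rises was 1.45 and that of 197 falls was -1.07 on the log2 scale. The plot of change against level shows that rises cover the whole range from silent to abundant genes, while 197 of the 202 falls had at least 1 CPM untreated, and a gene silent at 0 µM could not fall. The 2 groups did not overlap in 11.2% of tested genes where 2 µM was higher and in 8.01% where it was lower. The libraries numbered alike at both doses deviated together, and a fit that takes this number as a block gave 399 rises and 314 falls, of which 355 and 161 were also called without it. Without both replicates 3 the counts were 1382 and 788, and 587 of the 611 rises and 190 of the 202 falls were still called. Under scaling by total counts the median of all genes moved to 0.15 and the calls split into 904 rises and 94 falls, against the 611 and 202 given above. Of the calls, 197 rises and 25 falls held in each of 15 settings that changed the scaling, the tool, the block or the doses fitted or left out 1 library. Where a gene described below was not among these, adjusted p-values from settings that ended its call are given, though not from every such setting.

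**Figure D1:**
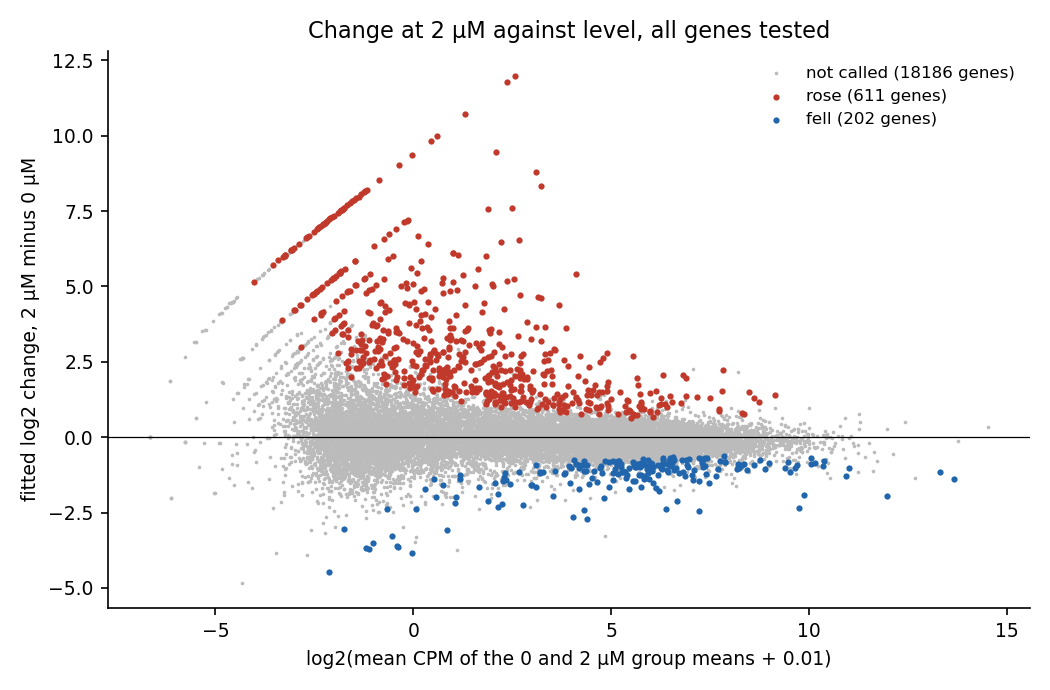
Each point is 1 of the 18999 genes tested, by its level averaged over both groups (x axis, log2 of CPM) and its fitted log2 change at 2 µM (y axis); red points rose, blue points fell and grey points passed no threshold. The 611 rises spread over all levels and reach higher than the 202 falls reach low; the straight lines at upper left are genes with 0 or few counts at 0 µM, whose fitted change has no upper bound.

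For 23 of the 611 genes that rose, a promoter peak of open chromatin also rose and reached into the 250 bases before the RefSeq start. Of the 10777 promoter peaks of tested genes 3% rose, wherever they lay. The share reaching these bases was not counted over all tested genes, so the 23 are only described. BCL2A1, which encodes the anti-apoptotic protein BFL-1 named in the study's title, had the largest peak change of the 23. The next 4 shown had the largest peak changes among the protein-coding genes whose RNA call held in all 15 settings and whose peak covered at least 100 of the bases, a choice made after the values were seen. The 250 bases before the start (RefSeq, GRCh38.p14, gene strand, 5′ to 3′) are printed with every CG in capitals, since CG is the site that the drug's targets methylate.

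BCL2A1: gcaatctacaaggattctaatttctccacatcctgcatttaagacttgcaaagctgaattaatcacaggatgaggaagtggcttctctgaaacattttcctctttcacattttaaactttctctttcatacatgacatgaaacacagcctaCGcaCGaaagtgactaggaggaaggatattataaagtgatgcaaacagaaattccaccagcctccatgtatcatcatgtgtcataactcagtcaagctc

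LXN: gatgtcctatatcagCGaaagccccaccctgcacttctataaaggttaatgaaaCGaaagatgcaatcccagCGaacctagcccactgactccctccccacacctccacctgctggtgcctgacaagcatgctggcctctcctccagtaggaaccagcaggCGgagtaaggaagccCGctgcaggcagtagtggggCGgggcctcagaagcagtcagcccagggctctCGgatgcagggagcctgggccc

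NTNG1: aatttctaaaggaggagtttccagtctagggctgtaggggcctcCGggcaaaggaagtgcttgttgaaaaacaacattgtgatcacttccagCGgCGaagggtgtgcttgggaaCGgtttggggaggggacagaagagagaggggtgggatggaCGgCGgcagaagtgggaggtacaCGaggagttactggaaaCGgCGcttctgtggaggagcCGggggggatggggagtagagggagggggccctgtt

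UCN2: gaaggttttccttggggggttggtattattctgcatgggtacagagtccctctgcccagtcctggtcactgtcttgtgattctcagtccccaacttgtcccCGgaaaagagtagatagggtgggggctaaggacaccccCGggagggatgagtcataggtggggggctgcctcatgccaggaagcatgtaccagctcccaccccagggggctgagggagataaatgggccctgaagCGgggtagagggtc

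FERMT3: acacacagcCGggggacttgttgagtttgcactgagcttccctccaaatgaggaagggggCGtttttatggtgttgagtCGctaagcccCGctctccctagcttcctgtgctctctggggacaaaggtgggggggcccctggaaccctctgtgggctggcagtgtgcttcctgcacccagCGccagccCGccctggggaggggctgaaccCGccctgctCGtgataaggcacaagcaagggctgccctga

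BCL2A1 lies at chr15:79971197-79971446 (minus strand) with 2 CG and 195 bases inside the peak. LXN lies at chr3:158672649-158672898 (minus strand) with 7 CG and 250 bases inside the peak. NTNG1 lies at chr1:107139838-107140087 (plus strand) with 10 CG and 189 bases inside the peak. UCN2 lies at chr3:48563782-48564031 (minus strand) with 3 CG and 103 bases inside the peak. FERMT3 lies at chr11:64206471-64206720 (plus strand) with 8 CG and 216 bases inside the peak. Over the 23 promoters the number of CG ran from 1 to 24 with a median of 7, and over 27305 RefSeq promoters of the same length 93.58% held a CG, with a median of 10.

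LXN, which encodes the carboxypeptidase inhibitor latexin, had 0 counts in every untreated library and 0.351, 1.24 and 0.917 CPM in the treated ones, which is at least 30.9-fold higher against a floor of 3 counts over the group (adjusted p = 0.00667). Its promoter peak changed by 1.62 (SE 0.27, adjusted p = 3.98e-05). The gene lies inside the span of GFM1, whose log2 change was 0.22, and the sources used here do not state if reads were counted by strand. NTNG1, an axon guidance protein of the netrin G family, stood at 0, 0.103 and 0.0512 CPM untreated and 2.08, 3.35 and 0.362 CPM treated (log2 change 5.08, SE 0.86, adjusted p = 0.00586). Replicate 3 reached the lowest treated level, still above every untreated library. UCN2, a stress peptide of the corticotropin-releasing family, went from 1.19, 0.746 and 2.3 CPM to 10.5, 7.88 and 4.35 CPM (log2 change 2.42, adjusted p = 0.00995), and its peak changed by 0.84 (adjusted p = 0.00275). FERMT3, the integrin activator kindlin-3 of blood cells, went from 0.781, 0.849 and 1.69 CPM to 12.8, 6.94 and 14.2 CPM (log2 change 3.34, adjusted p = 0.00506), and its peak changed by 0.83 (adjusted p = 0.000794). BCL2A1 itself stood at 0.594, 1.23 and 1.2 CPM against 9.09, 10.5 and 2.0 CPM (log2 change 2.82, adjusted p = 0.0122). Its treated replicate 3 was close to the untreated libraries, and the call was lost with the replicate block (adjusted p = 0.0532) and without 2 µM replicate 1 or 2 (adjusted p = 0.0528 and 0.0607).

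Genes with no or nearly no reads in untreated cells were read in every treated library. They passed the filter through the drug groups alone, so their number supports nothing, and they are described by single genes from the 20 largest protein-coding rises. TIGD7, a gene derived from a DNA transposon, had 0 counts in the 3 untreated libraries and 3.79, 3.35 and 1.9 CPM after the drug, at least 108-fold higher (adjusted p = 0.000579). It overlaps ZNF263, whose log2 change was -0.11. TUBA3D, an alpha-tubulin of testis, rose from 0 counts to 3.84, 2.96 and 1.32 CPM, at least 96.5-fold (adjusted p = 0.00218). Its near-identical copy TUBA3E rose with 50 treated counts (adjusted p = 0.0133, and 0.0592 with the block), so reads may be split between them. BTBD18, a factor of the germline piRNA pathway, rose from 0 counts to 1.73, 1.94 and 2.13 CPM, at least 71.3-fold (adjusted p = 0.00312). HPDL, a dioxygenase-like mitochondrial protein, rose from 0 counts to 1.08, 0.849 and 1.3 CPM, at least 39.8-fold (adjusted p = 0.00586). Among the treated libraries replicate 3 was the lowest for TIGD7 and TUBA3D and the highest for BTBD18 and HPDL.

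Other members of the 20 were nearly silent rather than at 0. DCAF4L1, an intronless relative of a ubiquitin ligase adaptor, stood at 0.0625, 0.0772 and 0.0256 CPM untreated and 20.4, 23.6 and 11.9 CPM treated (log2 change 8.34, SE 0.81, adjusted p = 0.000129). CLDN7, a claudin of epithelial tight junctions, went from 0, 0 and 0.179 CPM to 5.32, 4.44 and 3.18 CPM (log2 change 6.04, adjusted p = 0.00166). COL21A1, a fibril-associated collagen, went from 0.0313, 0.0257 and 0.102 CPM to 3.16, 2.84 and 5.8 CPM, with its highest value in replicate 3 (log2 change 6.11, adjusted p = 0.000524). IRF7, an inducer of interferon genes, had 0, 0.103 and 0 CPM before and 2.84, 1.09 and 2.81 CPM after (adjusted p = 0.00301). OXT, the oxytocin precursor, had 2 counts in all untreated libraries and 177 in the treated ones, a ratio of 76 (95% interval 20.7 to 633) by exact counting, which covers counting error only. EMC10, a subunit of the membrane protein insertion complex of the ER, and HDHD5, a phosphatase-like protein, had 3 and 2 counts untreated. Their treated levels were 3.74, 2.3 and 1.58 CPM and 2.91, 2.26 and 1.22 CPM (adjusted p = 0.00393 and 0.000347). KCNQ5 and CHRNA9, a potassium channel and a nicotinic receptor subunit, had 2 and 1 counts untreated and 156 and 159 treated (adjusted p = 0.000865 and 0.0102).

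Genes of the germline or testis also rose. GCNA, a nuclear protein of germ cells, stood at 0.281, 0.746 and 1.33 CPM untreated and 36.6, 32.8 and 32.1 CPM treated (log2 change 5.40, SE 0.49, adjusted p = 7.96e-05). The 3 treated libraries lay close together and far above the untreated ones. PRAME, a tumour antigen normally of testis, went from 1.41, 1.72 and 2.43 CPM to 15.2, 15.2 and 20.4 CPM (log2 change 3.19, adjusted p = 7.96e-05). SYCP3, a protein of the meiotic chromosome axis, went from 0, 0.0772 and 0.0512 CPM to 1.71, 2.11 and 0.81 CPM (adjusted p = 0.00525). PASD1 and TSPYL6, both testis genes, had 1 untreated count each and 220 and 218 treated counts (adjusted p = 0.00393 and 0.00274). GCNA, PRAME and SYCP3 were named after their values were seen, and no list of germline genes was counted. Several of the genes above overlap another tested gene: MZT2A, SELENOH, ELP5, ACYP2 and CHPT1, which overlap TUBA3D, BTBD18, CLDN7, TSPYL6 and SYCP3, changed by -0.22, 0.31, -0.14, 0.30 and -0.66.

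**Figure D2:**
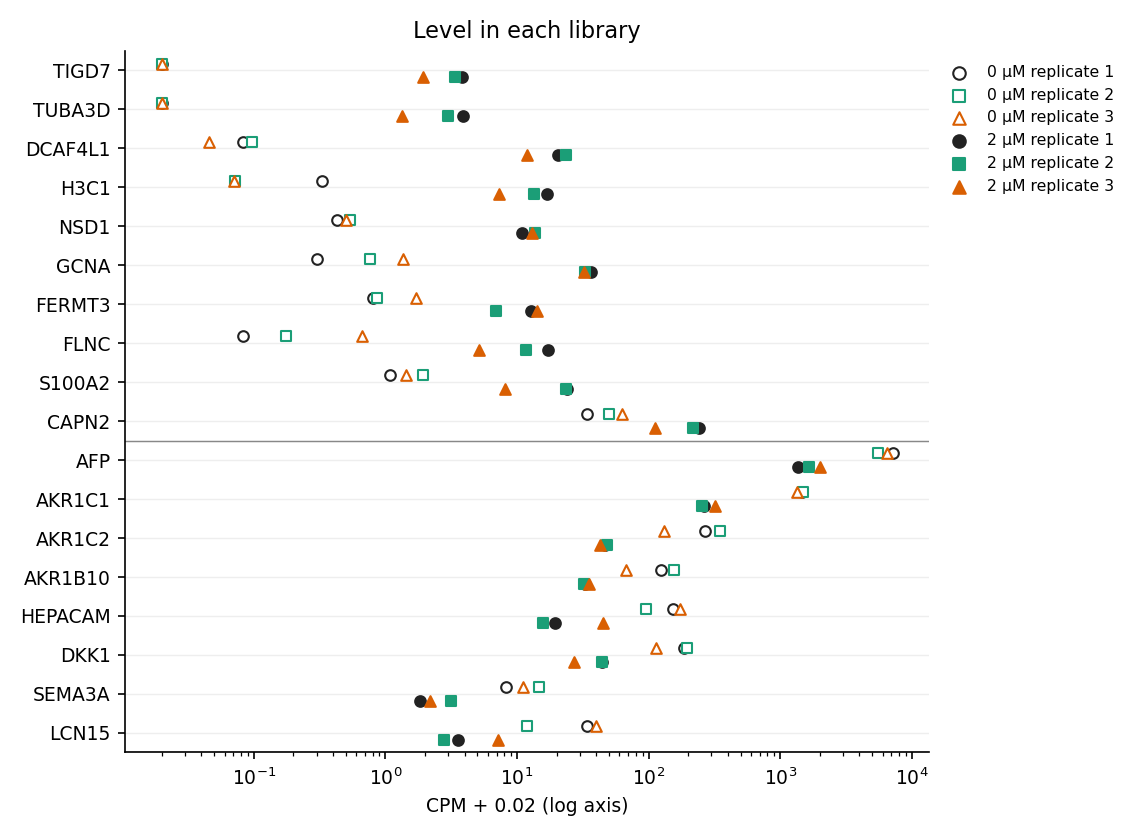
Level of 10 genes that rose (above the line) and 8 that fell (below it) in each library, as CPM plus 0.02 on a log axis; open symbols are the 3 untreated libraries, filled symbols the 3 at 2 µM, and shape and colour give the replicate number. In each gene the open and filled symbols do not overlap. Among the rises the filled triangle of replicate 3 lies nearest to the open symbols in all but NSD1 and FERMT3. Among the falls it lies nearest to them in AFP, AKR1C1, AKR1B10, HEPACAM and LCN15.

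Other genes rose from a low level in all 3 treated libraries. NSD1, which methylates histone H3 at lysine 36, stood at 0.406, 0.514 and 0.486 CPM untreated and 10.9, 13.6 and 12.9 CPM treated (log2 change 4.72, SE 0.34, adjusted p = 1.91e-05). VPS35L, a subunit of the endosomal retriever complex, went from 3.0, 2.31 and 3.17 CPM to 19.5, 22.5 and 20.7 CPM (log2 change 2.88, SE 0.24, adjusted p = 6.77e-05). Its promoter peak was not called (log2 change 0.25, adjusted p = 0.198). TRIP6, a LIM protein of focal adhesions, went from 0.25, 0.206 and 0.358 CPM to 11.9, 9.97 and 8.12 CPM (log2 change 5.18, adjusted p = 1.91e-05). CTSZ, a lysosomal cysteine protease, went from 0.719, 0.617 and 0.717 CPM to 22.7, 14.3 and 14.4 CPM (log2 change 4.64, adjusted p = 4.73e-05). HSD17B1, which makes estradiol from estrone, went from 0.969, 1.57 and 0.947 CPM to 34.8, 22.7 and 16.2 CPM (log2 change 4.40, adjusted p = 6.88e-05), and its antisense partner HSD17B1-AS1 changed by 0.42. MFSD2B, the sphingosine-1-phosphate exporter of red cells, went from 0.938, 1.9 and 0.87 CPM to 17.9, 13.2 and 16.2 CPM (log2 change 3.66, adjusted p = 9.53e-05). All but CTSZ were named after their values were seen.

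Along the chromosomes 2 runs of at least 3 neighbouring tested genes rose. Of 541 risen genes with a RefSeq position, 65 (12.01%) had a risen gene as a neighbour on either side, and of 194 fallen genes 17 (8.76%) had a fallen one. Of all genes with a position 3.39% had risen and 1.22% had fallen, and a gene has up to 2 neighbours. On chromosome 14 (chr14:100826108-101072937, hg38) the run held MEG3, MEG8, SNORD114-1, SNORD114-20 and MEG9, noncoding genes of the imprinted DLK1-MEG3 region that are expressed from the maternal copy. MEG8 stood at 0, 0.0514 and 0.102 CPM untreated and 10.4, 14 and 9.08 CPM treated (log2 change 7.62, SE 0.83, adjusted p = 0.00037). MEG9 had 1 untreated count and 187 treated counts, at 0.979, 1.96 and 1.43 CPM (adjusted p = 0.00136). The 2 SNORD114 genes lie within the span of MEG8, so their reads cannot be told apart from it. On chromosome 2 (chr2:230165186-230545606) the run held SP110, SP140, SP140L and SP100, the 4 genes of the speckled protein family, which act in nuclear bodies and are known as interferon-inducible. SP140 rose the most, from 0.938, 0.926 and 1.02 CPM to 18, 16.6 and 6.16 CPM (log2 change 3.81, adjusted p = 0.000732). SP100 went from 26.9, 22.9 and 27.8 CPM to 67.9, 68.6 and 43.9 CPM (log2 change 1.22, adjusted p = 0.00667). SP110 and SP140L changed by 1.43 and 1.17 (adjusted p = 0.00261 and 0.00266), and neither of their promoter peaks nor that of SP100 was called (adjusted p = 0.862, 0.961 and 0.548). SP110 and SP140 overlap, and all 4 are similar in sequence. Both runs were found by scanning all neighbours.

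Noncoding genes outside these runs also rose. ST8SIA6-AS1, antisense to a sialyltransferase gene, had 0 counts untreated and 1.46, 1.7 and 1.49 CPM treated, at least 56.7-fold higher (adjusted p = 0.000347). MIR122HG, the host transcript of the liver microRNA miR-122, went from 0.50, 0.0257 and 0.179 CPM to 5.17, 5.0 and 13 CPM (log2 change 5.08, adjusted p = 0.00228), highest in replicate 3. Of the called genes with a RefSeq type, 70 rises and 3 falls were long noncoding RNAs against 456 rises and 190 falls of protein-coding genes, while 1470 long noncoding and 13130 protein-coding genes were tested.

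A few histone genes of low level rose. Replication-dependent histone genes make the bulk of chromatin protein in S phase. Of 61 tested, 8 rose (13.1%) and 0 fell at the threshold, against 3.22% and 1.06% of all tested genes. At an unadjusted p under 0.05, 9 were higher and 19 lower, and DESeq2 called 7 rises and 4 falls among these 61. A change below 0 was seen in 51, and the median was -0.80. Those that rose were at low levels untreated: H3C1 at 0.313, 0.0514 and 0.0512 CPM went to 16.8, 13.4 and 7.31 CPM (log2 change 6.54, adjusted p = 7.96e-05). H1-1, a linker histone of low use in most tissues, went from 0.0625, 0.0772 and 0.179 CPM to 5.47, 4.71 and 3.71 CPM (log2 change 5.38, adjusted p = 7.35e-05), and the testis linker histone H1-6 from 0.688, 0.412 and 0.358 CPM to 11.2, 11.1 and 5.63 CPM (log2 change 4.26, adjusted p = 7.96e-05). H2BC6 and H3C12 changed by 3.27 and 3.63 (adjusted p = 0.000436 and 0.000732), and the promoter peak of H3C12 rose by 3.11 (adjusted p = 7.44e-09). H2BC8, an abundant member, stood at 499, 335 and 100 CPM untreated and 217, 196 and 106 CPM treated, with no call (log2 change -0.85, adjusted p = 0.316). Its untreated replicate 3 was below its treated replicate 3. With all libraries, 31 fell when no filter on counts was applied and 2 with the block over all doses. With the filter, 33 fell without 0 µM replicate 3 and 31 without both replicates 3. The count of rises was 5 without 2 µM replicate 1 or 2. Many of these genes are near-identical to others of the same histone family, and reads may be split between such copies.

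Genes known from blood lineages were among the rises, although the summed leukocyte markers, nearly all LYZ, were not higher. Of 7 tested leukocyte markers 1 rose (14.3%) and 1 fell (14.3%), against 3.22% and 1.06% of all tested genes. A change below 0 was seen in 4 of the 7, with a median of -0.19. CD74 among them changed by -0.80 with no call (adjusted p = 0.177). FCER1G, the shared signalling chain of Fc receptors, stood at 1.25, 0.746 and 1.13 CPM untreated and 5.7, 5.89 and 8.51 CPM treated (log2 change 2.69, adjusted p = 0.00813). CD22 and CD79A, of the B-cell receptor pathway, went from 0.438, 0.952 and 1.43 CPM and 0.313, 0.797 and 0.691 CPM to 10.6, 8.15 and 5.54 CPM and 6.38, 4.29 and 2.2 CPM (adjusted p = 0.00202 and 0.00898). The peaks assigned to their promoters changed by 0.89 and 1.06 (adjusted p = 0.000199 and 0.000858). MAG, a myelin protein encoded beside CD22, went from 0.219, 0.412 and 0.384 CPM to 3.59, 2.01 and 1.43 CPM (log2 change 2.77, adjusted p = 0.00628). HCLS1, an actin regulator of blood cells, went from 0.0625, 0.0257 and 0.154 CPM to 2.38, 1.67 and 1.17 CPM (adjusted p = 0.00141), and CD14, a co-receptor for lipopolysaccharide that liver cells also make, from 3.94, 1.93 and 2.84 CPM to 11.6, 8.25 and 19.9 CPM (adjusted p = 0.0138). PECAM1, an adhesion protein of endothelium and platelets, went from 0.563, 0.129 and 0.537 CPM to 1.91, 1.92 and 4.07 CPM (adjusted p = 0.0169). In contrast LYZ, the lysozyme gene and by far the most abundant leukocyte marker here, stood at 2326, 2466 and 3447 CPM and then 1109.7, 1234 and 1676 CPM (log2 change -1.04, adjusted p = 0.0254). The LYZ call was lost without 2 µM replicate 1 or 2 (adjusted p = 0.131 and 0.118), with total counts (adjusted p = 0.0521) and with 0 and 2 µM fitted alone. FERMT3 and CD14 overlap TRPT1 and TMCO6, which changed by 0.24 and 0.06. PTPRC was at 0 counts, and CD22, CD79A, MAG, FCER1G and HCLS1 were named after their values were seen.

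Some genes that answer to cell tension rose. Of 39 tested targets of YAP and SRF, factors that answer to cell tension, 6 rose (15.4%) and 0 fell. Of all tested genes 3.22% rose and 1.06% fell. The median change was 0.35, against -0.01 for all genes. FLNC, an actin crosslinker, stood at 0.0625, 0.154 and 0.64 CPM untreated and 17.2, 11.7 and 5.16 CPM treated (log2 change 5.26, SE 0.60, adjusted p = 0.000508). Its promoter peak rose by 0.89 (adjusted p = 0.00951). TPM2, a tropomyosin, went from 5.34, 4.63 and 13.3 CPM to 66.9, 49.6 and 26.4 CPM (log2 change 2.61, adjusted p = 0.00343). TGFB1I1, a focal adhesion adaptor, went from 2.31, 2.24 and 4.09 CPM to 17.7, 9.12 and 8.08 CPM (adjusted p = 0.00595), and its promoter peak rose by 1.06 (adjusted p = 6.66e-05). In each of these genes the treated replicate 3 was the lowest of its group and still above the untreated libraries. The list's rises numbered 3 without 2 µM replicate 1, without 2 µM replicate 2 or without either of the 0 µM replicates 1 and 2, 12 without 2 µM replicate 3 and 15 without both replicates 3.

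Among 33 tested matrix proteases, plasmin factors and their inhibitors, 5 rose (15.2%) and 0 fell, against 3.22% and 1.06% of all tested genes. The median was 0.51. PLAU, the urokinase that activates plasminogen, went from 2.56, 6.1 and 4.66 CPM to 23, 21.1 and 10.5 CPM (log2 change 2.03, SE 0.37, adjusted p = 0.0097). Its receptor gene PLAUR went from 4.66, 4.5 and 3.3 CPM to 16.3, 11.5 and 7.33 CPM (adjusted p = 0.0165). MMP14, a membrane-bound collagenase, went from 22.4, 18.9 and 16.8 CPM to 82.3, 55.1 and 28.4 CPM (adjusted p = 0.0162), and TIMP1, an inhibitor of such proteases, from 37.1, 43.4 and 54 CPM to 159.6, 107 and 62.1 CPM (adjusted p = 0.0245). MMP3, another matrix protease, also rose (adjusted p = 0.0449). PLAU was the 1 member still called without 2 µM replicate 1 and without 2 µM replicate 2, where the adjusted p of PLAUR, MMP14, TIMP1 and MMP3 reached 0.0892, 0.0831, 0.11 and 0.153 over the left-out libraries. TIMP1 was also lost with the block (adjusted p = 0.0843). The list had 3 rises without 0 µM replicate 1, 8 without 2 µM replicate 3, 10 without 0 µM replicate 3 and 11 without both replicates 3. FURIN, the convertase that activates many secreted proteases and growth factors and no member of the list, went from 32.8, 37.3 and 30.7 CPM to 125, 88.5 and 66.5 CPM (log2 change 1.47, adjusted p = 0.00312), and was named after its values were seen.

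Of 19 tested integrin genes 3 rose (15.8%) and 0 fell, against 3.22% and 1.06% of all tested genes. ITGA3, a laminin receptor subunit, went from 1.47, 1.98 and 3.92 CPM to 12.5, 8.76 and 10.5 CPM (log2 change 2.10, adjusted p = 0.00444), with its promoter peak up by 0.58 (adjusted p = 0.0102). ITGAE, whose protein binds E-cadherin, went from 15.6, 16.7 and 10.2 CPM to 39, 36.7 and 61.7 CPM (log2 change 1.70, adjusted p = 0.003), and was highest in replicate 3. It overlaps HASPIN and P2RX5, which changed by -0.62 and 1.63. ITGA5, of the fibronectin receptor, also rose, and that call was lost with the block (adjusted p = 0.126) and without 1 of 6 libraries, those numbered 1 or 2 at 0 and 2 µM and 10 µM replicates 1 and 3 (adjusted p up to 0.171). In tight junctions and cell adhesion 23 of 34 genes were below 0 (median -0.22), and 5 were higher and 6 lower at an unadjusted p under 0.05. At the threshold 2 rose (5.88%) and 1 fell (2.94%). The fall was not called without any 1 of the 0 µM libraries or without 2 µM replicate 1 or 2. ESAM, an immunoglobulin-like adhesion protein of endothelium, went from 9.6, 14.7 and 13.4 CPM to 122, 86.3 and 37.3 CPM (log2 change 2.70, adjusted p = 0.00141), and it makes up most of the endothelial sum given above.

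Of 25 tested keratin and desmosome genes 3 rose (12%) and 1 fell (4%), against 3.22% and 1.06% of all tested genes. KRT23, an epithelial keratin, stood at 39.9, 41.1 and 49 CPM untreated and 246, 229.9 and 72.3 CPM treated (log2 change 2.08, SE 0.37, adjusted p = 0.00813). Its treated replicate 3 was far below the other treated libraries. KRT19, of bile duct and progenitor cells, went from 170.2, 173 and 217 CPM to 792, 536 and 272 CPM (adjusted p = 0.046), a call lost with the block (adjusted p = 0.0569) and without 2 µM replicate 1 or 2 (adjusted p = 0.213 and 0.133), among others. Among 23 S100 proteins and annexins, calcium-binding proteins of the cell cortex, 4 rose (17.4%) and 1 fell (4.35%). S100A2 went from 1.06, 1.9 and 1.41 CPM to 23.8, 23.5 and 8.06 CPM (log2 change 3.65, adjusted p = 0.000553), and ANXA3 from 6.03, 8.41 and 7.19 CPM to 43, 47.9 and 18 CPM (log2 change 2.33, adjusted p = 0.00194). ANXA2, a receptor for plasminogen activation at the cell surface, went from 226, 173 and 277 CPM to 647, 649 and 369.6 CPM (adjusted p = 0.0103), with adjusted p of 0.0507 and 0.0531 without 2 µM replicate 1 or 2. The fall of S100A4 (adjusted p = 0.0409) was lost with the block (adjusted p = 0.0569) and without any 1 library other than 0 µM replicate 3 (adjusted p up to 0.155). The lists' rises were 1 and 2 without 2 µM replicate 1 or 2, 4 and 7 without 2 µM replicate 3 and 7 and 6 without 0 µM replicate 3, for keratins and for S100 proteins and annexins.

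Single genes at 100 CPM or more also rose. CAPN2, the catalytic subunit of a calcium-dependent protease, stood at 34.2, 50.4 and 62.7 CPM untreated and 241, 218 and 112 CPM treated (log2 change 1.95, SE 0.29, adjusted p = 0.00266). F2RL1, the receptor PAR2 that serine proteases cleave, went from 56.1, 103 and 79.3 CPM to 475, 483 and 161 CPM (log2 change 2.23, adjusted p = 0.00451). PLEKHG4, a guanine nucleotide exchange factor, went from 44.7, 37.3 and 27.4 CPM to 122.8, 83.8 and 107 CPM (log2 change 1.52, adjusted p = 0.00223). AOX1, an aldehyde oxidase of liver, went from 75.6, 72.5 and 95.5 CPM to 216, 229 and 169 CPM (log2 change 1.33, adjusted p = 0.00202). TOMM34, a mitochondrial import protein, and GRB10, an imprinted adaptor of insulin signalling, changed by 1.55 and 2.08 (adjusted p = 0.0131 and 0.00888). TOMM34 was lost without 2 µM replicate 1 or 2 (adjusted p = 0.0735 and 0.0635), and GRB10 with the block (adjusted p = 0.0569). AOX1 was named after its values were seen.

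Single genes of secreted signals and of stress rose. VGF, a secreted neuropeptide precursor, went from 4.0, 8.1 and 10 CPM to 80.8, 37.1 and 37.1 CPM (log2 change 2.81, adjusted p = 0.00228). It was 1 of 2 rises (6.67%) among 30 growth factor and MAPK feedback genes, of which 0 fell. Of all tested genes 3.22% rose and 1.06% fell. DUSP4, which turns off MAP kinases, was the other, lost with the block (adjusted p = 0.068) and without 1 of the 4 libraries numbered 1 or 2 at 0 and 2 µM (adjusted p up to 0.0998). Without 0 µM replicate 3 the list had 9 rises, and without 2 µM replicate 3 it had 7. INHBB, the beta-B subunit of activin and inhibin, went from 4.16, 4.01 and 3.53 CPM to 26.9, 19.1 and 8.72 CPM (log2 change 2.22, adjusted p = 0.00354). It was 1 of 3 rises (10%) beside 1 fall (3.33%) in 30 TGF-beta and BMP genes. That list had 1 rise and 0 falls without replicate 1 of 0 µM or either of replicates 1 and 2 of 2 µM. ATF5, a stress-induced transcription factor, went from 4.66, 6.66 and 3.61 CPM to 35.2, 19.3 and 42.7 CPM (log2 change 2.70, adjusted p = 0.000579). Its overlapping neighbour NUP62 changed by -0.38. TSPO, the cholesterol-binding protein of the outer mitochondrial membrane, went from 2.0, 1.75 and 4.86 CPM to 26.3, 14.8 and 9.04 CPM (log2 change 2.54, adjusted p = 0.00623), and EID1, an inhibitor of differentiation, from 5.28, 4.01 and 4.09 CPM to 17.5, 14.8 and 13.5 CPM (log2 change 1.78, adjusted p = 0.00211). TSPO and EID1 were named after their values were seen. SQOR, the mitochondrial sulfide oxidase of the study's title, changed by 1.28 (SE 0.22, adjusted p = 0.00698), from 19.2, 17.8 and 18.8 CPM to 52.3, 53.1 and 30.4 CPM.

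The aldo-keto reductases AKR1C1, AKR1C2, AKR1B10 and AKR1C3 fell, while AKR1B1 and AKR7A2 had log2 changes of -0.48 and -0.13 with no call. AKR1C1, which reduces steroids and reactive carbonyls, stood at 1455, 1483 and 1334 CPM untreated and 264, 256 and 321 CPM treated (log2 change -2.34, SE 0.22, adjusted p = 7.96e-05). AKR1C2 went from 269.7, 350.4 and 130.3 CPM to 47, 48.4 and 42.8 CPM (log2 change -2.44, adjusted p = 0.00211), and AKR1B10, a reductase of retinal and lipid aldehydes, from 125, 155 and 67.1 CPM to 33, 32 and 35.1 CPM (log2 change -1.79, adjusted p = 0.00263). The treated libraries were close to each other in each of these genes, and untreated replicate 3 was the lowest untreated library in each. The AKR1C genes share most of their sequence, so reads may be split between them. They belong to 27 tested targets of NRF2, the regulator of the antioxidant response, of which 7 fell (25.9%) and 0 rose. Of all tested genes 1.06% fell and 3.22% rose. The median of the list was -0.47, and 24 of 27 were below 0. TKT, a transketolase of the pentose phosphate path, went from 389, 358 and 422 CPM to 199, 138 and 221 CPM (log2 change -1.07, adjusted p = 0.00915), and NFE2L2, which encodes NRF2, from 166, 211 and 208 CPM to 102, 121 and 128 CPM (adjusted p = 0.0371). NQO1, TXNRD1 and GCLM, widely used NRF2 targets, had changes of -0.39, -0.27 and -0.27 with no call (adjusted p = 0.409, 0.604 and 0.61). The list had 4 falls without 2 µM replicate 1 and 4 without 2 µM replicate 2, and NFE2L2 was lost in both (adjusted p = 0.178 and 0.106).

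Of 16 hepatocyte markers 4 fell (25%) and 0 rose, against 1.06% and 3.22% of all tested genes. The median was -0.53. AFP, the fetal counterpart of albumin, stood at 7136, 5566 and 6492 CPM untreated and 1356, 1649 and 2002 CPM treated (log2 change -1.94, SE 0.24, adjusted p = 0.000778). ALB, APOB and TTR, the genes of albumin, apolipoprotein B and transthyretin, changed by -1.39, -1.16 and -1.68 (adjusted p = 0.0247, 0.0269 and 0.02). ALB, APOB and TTR reached adjusted p of 0.129, 0.124 and 0.107 over the left-out libraries. AFP was the 1 fall left without 0 µM replicate 1, without 2 µM replicate 1 or without 2 µM replicate 2. APOA1, SERPINA1, FGB and HNF4A had changes of -0.70, -0.53, 0.16 and -0.14 with no call (adjusted p = 0.229, 0.41, 0.853 and 0.786). ALDH1A1, which makes retinoic acid, went from 354, 293 and 212 CPM to 115, 128 and 107 CPM (log2 change -1.29, adjusted p = 0.00355). In 36 genes of gluconeogenesis, the urea cycle and amino acid breakdown 3 fell (8.33%) and 2 rose (5.56%). Among the falls were CPS1, the entry enzyme of the urea cycle, and AASS, which degrades lysine (changes -0.75 and -1.20; adjusted p = 0.0235 and 0.0205). Both were lost without 2 µM replicate 1 or 2 (adjusted p up to 0.121 and 0.101), where the list had 0 falls and 0 rises, and CPS1 also with the block (adjusted p = 0.0512). The list had 1 fall without 0 µM replicate 1, 5 without 0 µM replicate 3 and 6 without 2 µM replicate 3. Of 36 phase II enzymes SULT2A1 and UGT2B4 fell (5.56%) and GSTP1 and GSTO2 rose (5.56%). The falls and GSTO2 reached adjusted p of 0.105, 0.114 and 0.081 with 1 library left out, and 0 of the falls were called without replicate 1 of 0 µM or either of replicates 1 and 2 of 2 µM. The list had 6 falls without 0 µM replicate 3 and 0 rises without 0 µM replicate 1. GSTP1, a glutathione transferase often silenced by methylation in liver tumours, went from 0, 0 and 0.307 CPM to 5.07, 3.59 and 2.92 CPM (adjusted p = 0.0162, and up to 0.0632 with 1 library left out).

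Most hypoxia and glycolysis genes had changes below 0, and 1 in each list (3.7%) fell at the threshold, against 1.06% of all tested genes. Of 27 targets of the hypoxia-inducible factors 25 had a change below 0, against 9674 of all 18999 genes, and the median was -0.90. CA9, a carbonic anhydrase, was the 1 fall, at 24.2, 10.7 and 73.8 CPM untreated and 4.59, 2.16 and 9.76 CPM treated (log2 change -2.71, adjusted p = 0.0485), and DESeq2 did not call it (adjusted p = 0.0783). DESeq2 called 4 other falls in the list. At an unadjusted p under 0.05, 12 were lower and 0 higher. Of 27 glycolysis genes 21 were below 0 and 6 above (median -0.55), with 16 lower and 3 higher at an unadjusted p under 0.05, and LDHA, lactate dehydrogenase A, fell from 1299, 1244 and 1553 CPM to 604, 691 and 938 CPM (adjusted p = 0.0253). SLC2A3, a glucose transporter, stood at 359, 238 and 701 CPM and 114, 119 and 190.1 CPM (log2 change -1.62, adjusted p = 0.0629), and P4HA1, of collagen hydroxylation, at 233, 215 and 742 CPM and 107, 131 and 223 CPM (log2 change -1.37, adjusted p = 0.0951). In both, untreated replicate 3 was the highest library. With no filter on counts 15 hypoxia and 10 glycolysis genes fell. With the replicate block 8 hypoxia and 8 glycolysis genes fell, among them SLC2A3 and P4HA1 (adjusted p = 0.0144 and 0.0304). Without 2 µM replicate 1 or 2 the count of falls was 0 in both lists, and without 2 µM replicate 3 it was 7 and 9. Without 0 µM replicate 1, 2 or 3 it was 1, 7 and 0 for hypoxia and 0, 4 and 2 for glycolysis, and without 10 µM replicate 2 it was 0 and 2. CA9 and LDHA reached adjusted p of 0.196 and 0.13 over the left-out libraries. In fatty acid and triglyceride synthesis 26 of 37 genes were below 0 (median -0.44). The 1 fall (2.7% of the list) was ELOVL6, a fatty acid elongase (adjusted p = 0.0178, and up to 0.0896 with 1 library left out). The count was 10 without 2 µM replicate 3 and 10 with no filter on counts. With the block 6 fell, among them SCD, the main desaturase, at 1648, 2113 and 2591 CPM untreated and 406, 481 and 1576 CPM treated (adjusted p = 0.0869 without and 0.0278 with the block).

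Further single genes were among the largest falls. HEPACAM, a liver and glial adhesion protein, went from 153, 95.8 and 172 CPM to 19.6, 15.7 and 44.8 CPM (log2 change -2.39, SE 0.38, adjusted p = 0.00409). DKK1, a secreted inhibitor of Wnt receptors, went from 187, 196 and 114 CPM to 44.3, 43.9 and 27.2 CPM (log2 change -2.10, adjusted p = 0.00506). SEMA3A, a repulsive guidance signal, went from 8.28, 14.7 and 11 CPM to 1.81, 3.11 and 2.15 CPM (log2 change -2.26, adjusted p = 0.00208). It was 1 of 2 falls (5.26%, against 1.06% of all tested genes) in 38 semaphorins, ephrins and receptors, with 0 rises. In that list 17 members were above 0, and 1 fell without 2 µM replicate 1. NEGR1, a GPI-linked adhesion protein of neurons, went from 3.03, 3.14 and 3.92 CPM to 0.577, 0.97 and 0.682 CPM (log2 change -2.17, adjusted p = 0.00628). LCN15, a lipocalin, went from 33.9, 11.8 and 39.8 CPM to 3.56, 2.79 and 7.14 CPM (log2 change -2.66, adjusted p = 0.00707), and RHBDL2, a rhomboid protease of the cell surface, from 7.0, 5.79 and 5.2 CPM to 0.904, 1.26 and 1.94 CPM (log2 change -2.12, adjusted p = 0.00628). In each of these genes no treated library reached the lowest untreated one. Of 43 collagens, laminins and matrix proteins 4 rose (9.3%) and 3 fell (6.98%), against 3.22% and 1.06% of all tested genes. The falls were NID1, which links laminin to collagen, FBLN1, a fibulin, and COL2A1, the collagen of cartilage (changes -1.46, -1.24 and -2.42; adjusted p = 0.0159, 0.0133 and 0.0194, and up to 0.0887, 0.0738 and 0.0989 with 1 library left out). The list had 9 falls with the block, 6 without 2 µM replicate 3, 5 without 0 µM replicate 2 and 0 without 2 µM replicate 1 or without replicate 2.

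5 more single genes that fell were named after their values were seen and belong to no list that was counted. RPS6KA3, the kinase RSK2 downstream of ERK, went from 900.4, 1038 and 1096 CPM to 319, 490.4 and 549 CPM (log2 change -1.16, adjusted p = 0.00898). PRKCA, protein kinase C alpha, went from 95.9, 95.5 and 118 CPM to 43.3, 51.8 and 56.4 CPM (log2 change -1.03, adjusted p = 0.007), and SGK1, a kinase induced by glucocorticoids, from 36.2, 27.3 and 47.5 CPM to 15.4, 12.1 and 11.7 CPM (log2 change -1.50, adjusted p = 0.00393). ITPR1, a calcium release channel of the ER, went from 51.4, 42.4 and 65.1 CPM to 20.8, 23.7 and 27.5 CPM (log2 change -1.14, adjusted p = 0.00772). KLF15, a factor of fasting metabolism, went from 11, 10.3 and 14.7 CPM to 4.89, 2.64 and 4.5 CPM (log2 change -1.58, adjusted p = 0.0102). All 5 calls held in each of the 15 settings.

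In several lists of basic cell functions no gene passed the threshold. No member was called among 27 heat shock proteins (4 higher and 1 lower at an unadjusted p under 0.05), 38 proteasome subunits (1 and 0), 76 mitochondrial ribosomal proteins (0 and 1), 36 ribosome biogenesis factors (2 and 3), 88 nuclear genes of oxidative phosphorylation (1 and 4) and 42 clotting, complement and acute phase genes (2 and 5). By DESeq2 the calls in these 6 lists were 0, except 1 fall each in ribosome biogenesis and oxidative phosphorylation. Of 20 aminoacyl-tRNA synthetases, which charge tRNAs, 16 had a change above 0 (median 0.34) with 0 calls. At an unadjusted p under 0.05, 7 of them were higher, DESeq2 called 3, and without both replicates 3 edgeR called 8. Of 218 zinc finger genes of chromosome 19, 4 rose (1.83%) and 0 fell, against 3.22% and 1.06% of all tested genes. The median of the list was 0.16. ZNF528, a zinc finger gene, went from 2.63, 3.39 and 2.53 CPM to 6.93, 9.19 and 5.46 CPM (adjusted p = 0.0165), and 0 of the list were called without replicate 1 of 0 µM or either of replicates 1 and 2 of 2 µM, where ZNF528 reached an adjusted p of 0.0768. Without 0 µM replicate 2 the list had 2 rises. The plot of lists by replicate number shows the spread behind these counts.

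**Figure D3:**
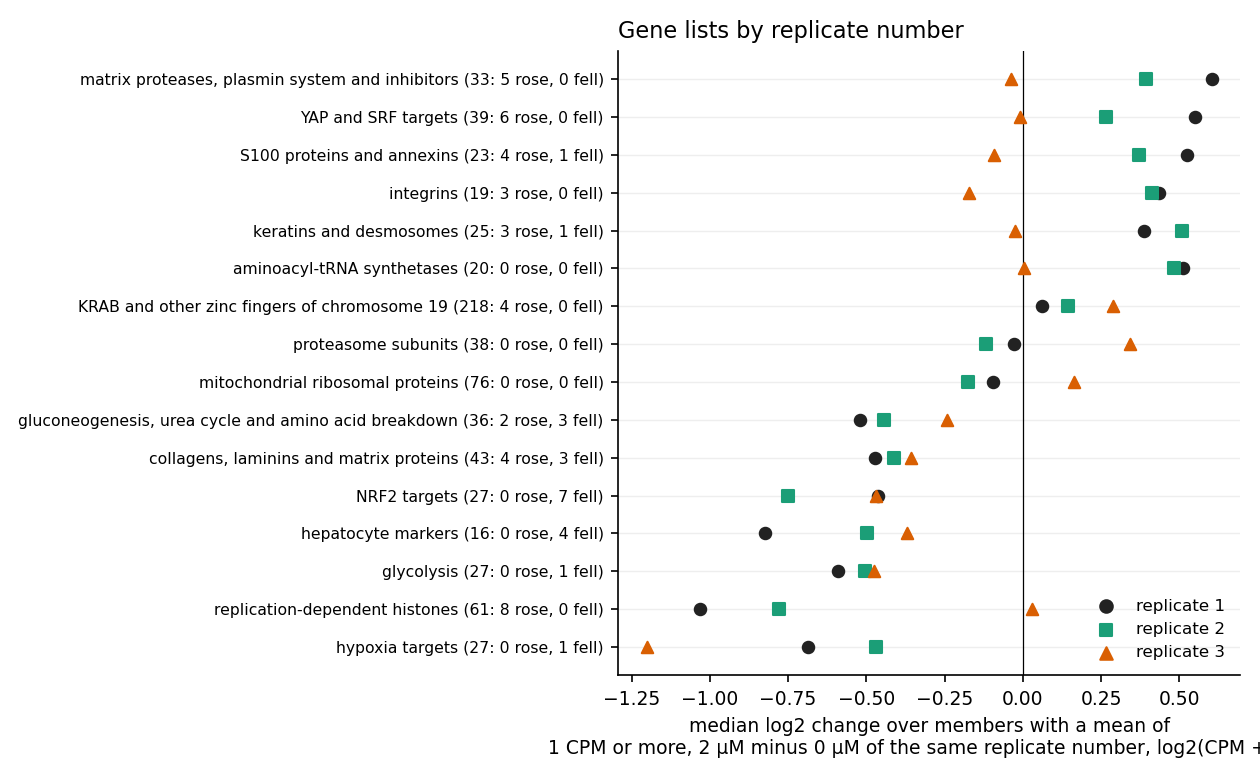
Median log2 change over those members of 16 gene lists that had a mean of at least 1 CPM (rows, with the number tested and called in brackets) between the 2 and 0 µM libraries of the same replicate number, on the log2(CPM + 0.5) scale; each symbol is 1 replicate number. Replicate 3 lies below the others in the 6 upper lists and is near 0 for histones, while it is the lowest for hypoxia targets, at -1.20.

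Replicates 3 differed from the others at both doses. Of 13866 genes with a mean of at least 1 CPM, both replicates 3 lay above all 4 other libraries in 1628 and below them in 1782, together 24.59%, against 15.60% for number 1 and 18.72% for number 2. In 39 genes the gap above exceeded 2-fold, where number 1 had 1 such gene and number 2 had 0. G6PC1, the enzyme that releases free glucose from liver cells, had the largest gap, at 7.47, 1.34 and 91.3 CPM untreated and 2.69, 3.32 and 43.5 CPM treated. IGFBP1, a secreted binding protein of insulin-like growth factors that fasting and hypoxia induce, stood at 279, 142 and 2981 CPM and 234, 219.9 and 1019.5 CPM. EGLN3, an oxygen-sensing prolyl hydroxylase, stood at 7.44, 3.78 and 50.2 CPM and 4.34, 3.91 and 20.3 CPM, and HAL, which degrades histidine, at 4.81, 1.98 and 26.2 CPM and 6.18, 6.99 and 27.8 CPM. GABRE, a subunit of GABA receptors, had nearly the same pair of values in each number, 7.38, 8.05 and 20.4 CPM and 7.2, 8.27 and 20.6 CPM. On the low side were H2BC3 at 449, 254 and 66.8 CPM and 176, 158 and 80.9 CPM, H4C5 at 447, 244 and 99.2 CPM and 229, 194 and 97.8 CPM, and ZNF114 at 34.2, 56.4 and 11 CPM and 26.2, 24.4 and 11.6 CPM. None of these genes was called at 2 µM. Over lists, the untreated replicate 3 differed from the mean of the other untreated libraries by a median of -1.66 for histones, 1.46 for hypoxia targets, -0.79 for ribosome biogenesis and -0.75 for proteasome subunits. In the treated libraries the same medians were -0.82, 0.71, -0.29 and -0.33, against 0.01 and -0.01 for all genes. Both replicates 3 lay below all others in 41 of 54 histone genes with a mean of at least 1 CPM, 31 of 38 proteasome subunits and 49 of 76 mitochondrial ribosomal proteins. What sets these libraries apart was not tested.

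**Figure D4:**
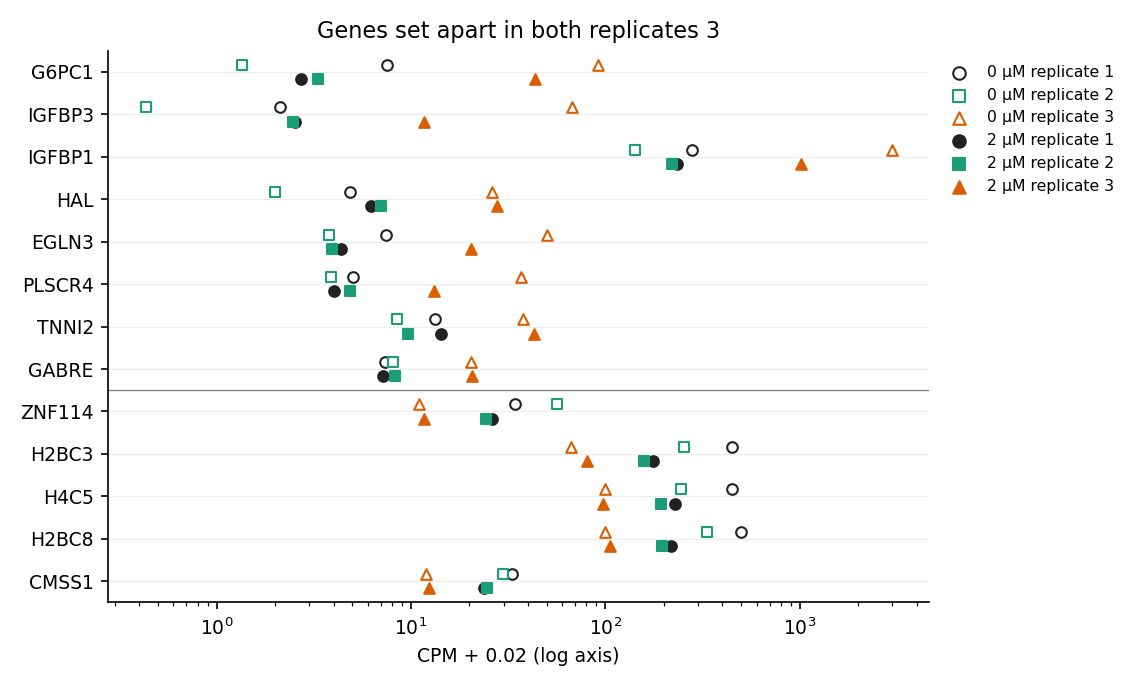
Level of 8 genes set higher (above the line) and 5 set lower (below it) in both replicates 3, as CPM plus 0.02 on a log axis, with symbols as in the plot of levels by library. Both triangles lie to the right of all circles and squares in the upper genes and to the left in the lower ones, whatever the dose.

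The change of called genes at 2 µM was also smaller in replicate 3. The median change of the 611 rises was 1.61, 1.46 and 0.86 on the log2(CPM + 0.5) scale between libraries numbered 1, 2 and 3, and that of the 202 falls was -1.18, -1.02 and -0.96. The treated replicate 3 was the nearest treated library to the untreated mean in 443 rises (72.5%) and 154 falls (76.24%). These genes were called with replicate 3 included. Called without either replicate 3, 1382 rises had a median of 1.17 in pairs 1 and 2 and 0.33 in pair 3, which they had not used, and 1020 of them (73.81%) kept their direction there. For 788 falls so called the medians were -0.99 and -0.37, and 587 (74.49%) kept it. Both sets were selected on pairs 1 and 2, and a smaller median in an unused pair can follow from that selection. How much of the drop it accounts for was not tested. The 76 rises called without both replicates 1 had medians of 2.59 in the others and 3.04 in the held-out pair, where all 76 kept their direction, and the 54 called without both replicates 2 had 3.05 and 3.04, with all 54 kept. Of the falls so called, 3 of 4 kept their direction in pair 1 and 8 of 8 in pair 2. These sets are small and of larger changes than the 1382, so the shares are not compared. The genes that fell furthest short in replicate 3 included LINC00973, a noncoding RNA, at 1.19, 1.75 and 2.33 CPM and 16.5, 16.2 and 3.18 CPM, SETD7, a lysine methyltransferase, at 0.50, 1.0 and 1.41 CPM and 7.78, 8.39 and 1.6 CPM, and PMAIP1, the pro-apoptotic protein NOXA, at 0.50, 2.03 and 1.38 CPM and 7.35, 10.9 and 2.03 CPM. Their calls (adjusted p = 0.0138, 0.0162 and 0.0294) were lost with the block (adjusted p = 0.0671, 0.1 and 0.0752) and without replicate 1 of 0 µM or either of replicates 1 and 2 of 2 µM (adjusted p up to 0.0653, 0.0764 and 0.14). Other genes reached their highest treated level in replicate 3: LGSN, a glutamine synthetase-like protein, stood at 0.375, 0.103 and 1.28 CPM and 4.24, 5.6 and 11.6 CPM, and ARHGAP4, a GTPase-activating protein, at 3.22, 5.38 and 2.74 CPM and 15.1, 10.7 and 21.7 CPM. LGSN overlaps PTP4A1, which changed by 0.20.

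**Figure D5:**
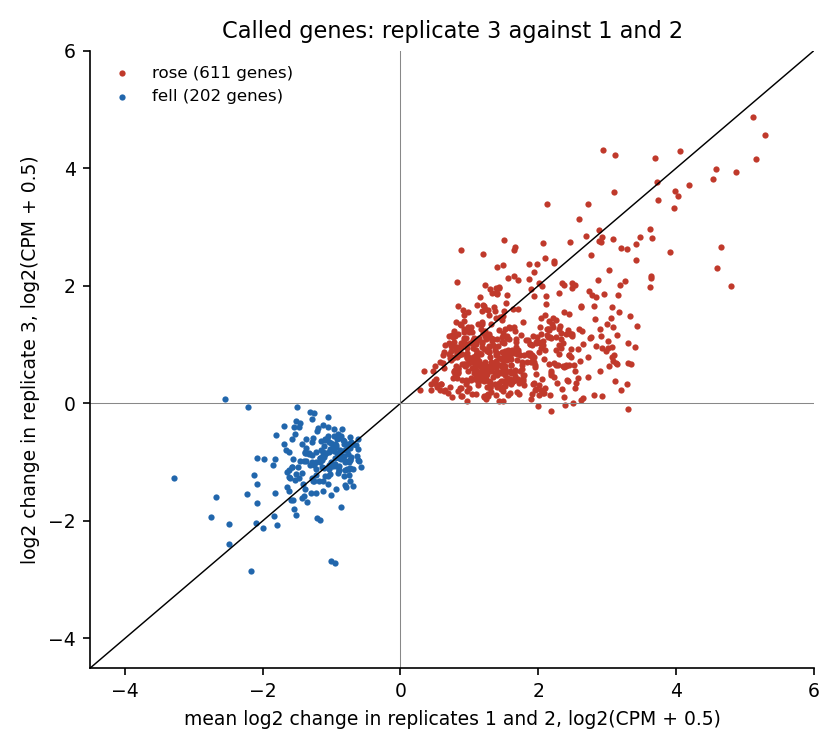
Each of the 813 called genes by its mean log2 change in replicates 1 and 2 (x axis) and its change in replicate 3 (y axis), both as log2(CPM + 0.5) of the 2 µM library minus the 0 µM library of the same number; the diagonal marks equal change. Most rises (red) lie below the diagonal, where the median change of rises is 1.61 and 1.46 in replicates 1 and 2 and 0.86 in replicate 3.

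Promoter peaks of open chromatin were read beside the RNA calls. Over all 58372 peaks 15.5% rose and 7.3% fell between 0 and 2 µM. A promoter peak had been annotated by the authors for 10777 of the tested genes, and 3% of these peaks rose and 5.79% fell at an adjusted p under 0.05. Among the 179 rises with a mean under 0.1 CPM at 0 µM, 33 (18.44%) had a promoter peak, against 56.72% of all tested genes. Of these 33 peaks 16 (48.48%) rose and 0 fell. Of 432 other rises 256 had one, of which 47 (18.36%) rose and 6 fell. Of 202 falls 159 had one, of which 4 rose and 15 (9.43%) fell. The peaks were counted in the ATAC-seq libraries alone, apart from the RNA. A peak may have entered the authors' set through the drug libraries alone, and such a peak could hardly fall. This was not tested, so the shares of risen peaks are only described. The genes silent before the drug passed the RNA filter only through the drug groups, and the shares were not tested against each other.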

How the data were processed

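RNA-seq was made from HepG2 cells at 0, 2 and 10 µM 5-azacytidine with 3 libraries each, and ATAC-seq in 8 libraries. The authors deposited raw read counts per gene and per peak, whole numbers with no normalization. The genome build hg38 and the tools DESeq2 1.42.1, DiffBind 3.12.0, HTSeq 2.0.4 and HISAT2 2.2.1 are named, with no role, per the submitters' processing notes, and the strand setting and peak caller are not given in the sources used here. Of the gene IDs, 62666 received a symbol and 521 did not.

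Counts were tested with edgeR 4.0.16 (R 4.3.3) by the quasi-likelihood test over all 9 RNA libraries with TMM scaling, filterByExpr and Benjamini-Hochberg adjustment over all 18999 tested genes, and every adjusted p in the text is from this tool unless DESeq2 1.42.0 is named. Peaks were tested the same way. A fold against 0 counts uses a floor of 3 counts over the group, and such folds cover counting error only. On simulated data 36% of 100 genes changed 2-fold and 89% of 100 changed 4-fold were called, with 3 false calls among 18999 genes. The simulation drew each library independently, with nothing shared by replicate number, and changed only genes above 1 CPM. These shares and the count of false calls therefore need not apply to the real libraries. For the replicate block and the changes by replicate number, numbers were taken to pair the libraries of 0 and 2 µM. This was done since the deviations of same-numbered libraries correlated at 0.393, 0.444 and 0.39, against -0.465 to 0.095 for other pairs. The main fit, which gave the calls, did not use this pairing.

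Genes named were BCL2A1 and SQOR, the 20 largest protein-coding rises and falls, the 10 largest at 100 CPM or more, the 8 largest noncoding ones, up to 4 of smallest p in each of 50 lists, and genes set apart in replicate 3. Names outside this rule were chosen after their values were seen: those marked so in the text, the called genes AKR1C3, ALDH1A1, H3C12, MMP3, NFE2L2, S100A4, TUBA3E, UCN2 and the SP genes, list members with no call, and overlapping genes. The members and lists were chosen with earlier results of these data known. Alternatives changed scaling, tool, filter, block and libraries. The planned rule for printed promoters took those of the 20 largest protein-coding rises whose promoter peak was called higher. Genes of chromosome 8 and genes without a RefSeq promoter sequence were left out. This rule found no gene, so none of the promoters printed comes from it.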

Additional observations from a re-analysis of the deposited data

How the results depend on the processing

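None of 191 named calls reversed its direction under the alternatives run, while counts of calls moved. Against 611 rises and 202 falls, fitting 0 and 2 µM alone gave 352 and 57, DESeq2 925 and 472, no filter on counts 1030 and 673, and total counts 904 and 94. With a mean of at least 1 CPM required, 369 rose. With the replicate block over 0 and 2 µM, 399 rose and 314 fell, and in the report the block changed no call but those given beside their genes. Leaving out 1 library gave 244 to 947 rises and 29 to 462 falls. Leaving out both replicates 3 gave 1382 and 788, and, chosen after seeing the data, leaving out both replicates 1 gave 76 and 4 and both replicates 2 gave 54 and 8. Of 191 named calls, 107 held without 2 µM replicate 1 and 105 without 2 µM replicate 2, against 186 without 2 µM replicate 3. Promoter peaks of called genes numbered 67 higher and 21 lower. The higher ones ran from 41 to 66 and the lower ones from 7 to 48 with 1 library left out. The lower ones were 48 with 0 and 2 µM alone, 33 with DESeq2 size factors and 64 with the replicate block. The cause of these moves was not tested, apart from the smaller number of libraries where some were left out.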

Other observations

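Cytochrome P450 genes, which oxidise drugs, steroids and vitamins, were a further group examined. Of 33 tested, 3 rose (9.09%) and 0 fell by edgeR, against 3.22% and 1.06% of all tested genes. The median log2 change was -0.14, and DESeq2 called 4 rises and 2 falls. CYP26B1, which clears retinoic acid, stood at 0.0938, 0.129 and 0.102 CPM untreated and 1.71, 0.679 and 0.789 CPM treated (log2 change 3.24, adjusted p = 0.00409). CYP2R1, which activates vitamin D, went from 0.50, 0.617 and 0.896 CPM to 4.47, 4.32 and 2.94 CPM (log2 change 2.53, adjusted p = 0.00263), and it overlaps PDE3B, which changed by -0.58. CYP11A1, which starts steroid synthesis, was the last of the 3 (adjusted p = 0.0447), a call lost with the replicate block (adjusted p = 0.0671) and with some libraries left out (adjusted p up to 0.135). The falls numbered 2 without 0 µM replicate 3 and 3 without 2 µM replicate 3.

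Clustered protocadherins, adhesion proteins of neurons encoded side by side, were above 0 in 23 of 28 tested genes (median log2 change 0.70). At the threshold 1 rose (3.57%), near the 3.22% of all tested genes. PCDHGA10 was the 1 rise, at 0.219, 0.0772 and 0.0768 CPM untreated and 0.703, 0.825 and 0.512 CPM treated (adjusted p = 0.0386), and it was lost with the block (adjusted p = 0.0763), with 0 and 2 µM fitted alone and without any 1 library other than 0 µM replicate 1 and 2 µM replicate 3 (adjusted p up to 0.153). At an unadjusted p under 0.05, 7 were higher and 1 lower, and DESeq2 called 2 rises. Some of the clustered genes share exons, so reads may be split between those.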
